A study of Homo sapiens with 12 samples.

Results

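The 42 genes described here encode heat shock proteins, the cytosolic chaperonin, their main partners and the folding factors of the secretory pathway. They were taken as a fixed list of gene symbols, chosen with earlier results of these data known. They were sorted into 26 cytosolic genes (the regulator HSF1 included), 12 of the endoplasmic reticulum and 4 of mitochondria. All 42 were found among the 60664 genes of the count table, and all 42 were among the 17960 genes that passed the low-count filter. The study varied the stiffness of the growth surface and read out the transcripts of neuroblastoma cells on it. SK-N-SH, a human neuroblastoma line that holds both neuron-like and flat, surface-adherent cells, was grown at 1 kPa (4 libraries), 8 kPa (4 libraries) or 30 kPa (4 libraries), and total RNA was sequenced. A lower value in kilopascals means a softer surface. By their labels the groups differed only in stiffness, and their libraries also differed in depth, as given below. The labels name no genotype, drug or time, and do not say whether the numbered libraries of a group came from separate cultures.

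Chaperones bind proteins that are not yet folded or have lost their fold. In the cytosol, HSP70 proteins and their DNAJ partners catch short unfolded stretches, HSP90 finishes many kinases and receptors, and the ring-shaped chaperonin CCT (also called TRiC) encloses whole proteins, actin and tubulin above all. The endoplasmic reticulum has its own HSP70 and HSP90 together with lectins and disulfide isomerases, and mitochondria fold imported proteins with HSP70, HSP60 and HSP10. The cytosolic set is controlled largely by the heat shock factor HSF1, and that of the endoplasmic reticulum by the unfolded protein response.

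The sequences before the genes' starts were searched for the sites through which HSF1 and the unfolded protein response act. RefSeq promoter windows (GRCh38.p14, from 250 bases before to 50 after each start) were at hand for 38 of the 42 genes, and not for CCT6A, HSF1, HSPA14 and PDIA3. The ER stress element, searched as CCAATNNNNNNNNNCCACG on both strands, is the site through which the unfolded protein response factor ATF6 acts. It was found in 5 of 11 windows of endoplasmic reticulum genes (HSP90B1, HSPA5, CALR, CANX and PDIA6), 0 of 23 of cytosolic genes and 0 of 4 of mitochondrial genes, against 0.0916% of all 27305 genes with a window. It contains a CCAAT box by construction, and the CCAAT box alone was in 10 of 11, 10 of 23 and 0 of 4 windows of the same sets, against 39.7% of all genes. The stretches are shown because, of the 38 genes with a window, only genes of the endoplasmic reticulum held the element. They are printed 5′ to 3′ on the gene's own strand, in lower case, with the element in capitals, and HSP90B1 carries it once in each direction and CALR in reverse. They lie at chr9:125241371-125241429 (minus strand), chr12:103930196-103930359 (plus strand), chr19:12938364-12938422 (plus strand) and chr2:10812833-10812891 (minus strand).
HSPA5: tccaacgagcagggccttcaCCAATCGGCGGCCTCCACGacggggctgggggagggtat
HSP90B1: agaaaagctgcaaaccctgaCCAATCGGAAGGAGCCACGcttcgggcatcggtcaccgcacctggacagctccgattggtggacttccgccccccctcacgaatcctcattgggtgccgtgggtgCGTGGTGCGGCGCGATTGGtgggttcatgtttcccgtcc
CALR: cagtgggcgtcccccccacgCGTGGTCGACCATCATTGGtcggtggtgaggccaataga
PDIA6: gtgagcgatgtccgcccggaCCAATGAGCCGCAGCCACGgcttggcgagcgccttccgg

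The heat shock element, the site of HSF1, was searched on both strands as GAANNTTCNNGAA or TTCNNGAANNTTC. It was found in 5 of 23 cytosolic windows (HSP90AA1, HSP90AB1, HSPA8, DNAJA1 and DNAJB6), 1 of 4 mitochondrial windows (HSPD1) and 0 of 11 endoplasmic reticulum windows, against 0.608% of all genes. No window of a chaperonin subunit held these letters, and the search says nothing on sites outside the window or with other spacing. The TATA box (TATAAA) was in 3 of 23 cytosolic, 1 of 11 endoplasmic reticulum and 0 of 4 mitochondrial windows, against 14% of all genes. The 4 stretches below are those of the most abundant carriers, with the element in capitals. They lie at chr14:102087100-102087152 (minus strand), chr6:44247758-44247863 (plus strand), chr11:123062159-123062386 (minus strand) and chr2:197500048-197500090 (minus strand), and the elements of HSPD1 overlap each other.
HSP90AA1: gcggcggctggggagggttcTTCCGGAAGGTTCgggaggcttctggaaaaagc
HSP90AB1: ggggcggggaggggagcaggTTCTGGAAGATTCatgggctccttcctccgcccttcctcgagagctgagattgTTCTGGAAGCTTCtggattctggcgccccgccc
HSPA8: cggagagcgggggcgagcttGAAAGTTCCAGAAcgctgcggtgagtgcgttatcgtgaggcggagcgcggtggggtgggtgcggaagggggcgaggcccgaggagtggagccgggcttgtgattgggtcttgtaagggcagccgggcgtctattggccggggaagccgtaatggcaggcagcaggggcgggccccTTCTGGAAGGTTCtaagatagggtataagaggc
HSPD1: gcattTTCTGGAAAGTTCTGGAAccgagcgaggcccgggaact

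Libraries held 1.43e+07 to 1.59e+07 counts in the 1 kPa group, 1.50e+07 to 2.53e+07 in the 8 kPa group and 2.39e+07 to 2.78e+07 in the 30 kPa group. Depth therefore moved with stiffness: the 4 libraries at 1 kPa and 8 kPa replicate 1 lay under 2e+07 counts, and the other 7 lay above it. Across genes, the rank correlation of level relative to the mean library with exon length was 0.017 to 0.113 in the 1 kPa group, -0.0901 to -0.0099 in the 8 kPa group and -0.104 to 0.0442 in the 30 kPa group, and its part in the results below was not tested. Of 8 markers of the neuroblastoma lineage 7 were above 1 CPM and TH was below it, with summed levels of 480 to 729 CPM at 1 kPa, 614 to 871 CPM at 8 kPa and 669 to 771 CPM at 30 kPa. PHOX2A and GATA2 were among the markers that passed as higher at 8 than at 1 kPa, and their part in the results was not tested. The fibroblast list, none of whose 7 markers was under 1 CPM, summed to 1345 to 1902 CPM at 1 kPa, 1316 to 1604 CPM at 8 kPa and 1616 to 1797 CPM at 30 kPa. All 4 immune markers, 3 of 4 endothelial markers and 2 of 5 epithelial markers stayed under 1 CPM in every group. In bulk RNA a change in the share of a cell type and a change of RNA per cell cannot be told apart.

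Each level is in CPM, the counts of a gene divided by the TMM-scaled library total, for replicates 1 to 4 in that order. Per kilobase of exon and averaged over the 12 libraries, the cytosolic HSP90 gene HSP90AB1 was the most abundant of the 42 at 446 CPM per kb, followed by CALR at 352, HSP90B1 at 337, HSPA8 at 272 and HSP90AA1 at 261 CPM per kb. The 8 chaperonin subunits, which assemble in equal numbers into the ring, lay between 46.1 (TCP1) and 95.8 (CCT6A) CPM per kb. The exon length takes in every annotated exon of a gene, so these values and their ranking do not measure transcript numbers. The stress-inducible HSPA1A and HSPA1B stood at only 5.67 and 2.49 CPM per kb and HSF1 at 5.15. Together the 42 genes took 1.46% ± 0.0427 of the scaled counts in the 1 kPa group, 1.55% ± 0.0728 in the 8 kPa group and 1.47% ± 0.0625 in the 30 kPa group (mean ± SD of 4 libraries).

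Of the 8 subunits of the cytosolic chaperonin, 5 rose at 8 kPa relative to 1 kPa. All 8 had positive log2 fold changes, with a median of 0.21 (0.15 to 0.29), and CCT7, CCT5, CCT2, CCT3 and TCP1 passed the threshold of 0.05. All 5 calls were lost with the depth class of the library (under or above 2e+07 counts) as a term, and without 8 kPa replicate 3 CCT7 was the only subunit that passed. The p-values here and below are from edgeR's quasi-likelihood test and were adjusted over all tested genes (Benjamini-Hochberg). Of all tested genes, 13.8% passed in this comparison, 8.17% as higher and 5.6% as lower at 8 kPa, and the median of all genes was -0.01. In each of the 8 subunits all 4 libraries at 8 kPa lay above all 4 at 1 kPa, which held for 9.41% of tested genes.

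CCT7, the eta subunit (chr2:73233420-73253021, plus strand), had 218, 199.6, 222 and 239 CPM at 1 kPa, 270.4, 258, 274 and 268 CPM at 8 kPa and 237, 245, 258 and 266 CPM at 30 kPa. Its 8 kPa libraries were all above its 1 kPa libraries, and the 30 kPa libraries overlapped both groups. The log2 fold change of 8 over 1 kPa was 0.29 with an SE of 0.0600 (adjusted p = 0.0120). CCT5, the epsilon subunit (chr5:10249921-10266412, plus strand), had 249.6, 237, 251 and 279.9 CPM at 1 kPa, 305, 293, 312 and 308 CPM at 8 kPa and 274, 276, 296 and 297 CPM at 30 kPa. It showed the same lack of overlap, with a log2 fold change of 0.26 with an SE of 0.0587 (adjusted p = 0.0147).

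CCT2, the beta subunit (chr12:69585334-69601570, plus strand), had 221, 199, 223 and 238 CPM at 1 kPa, 257, 249.7, 251 and 256 CPM at 8 kPa and 238, 234, 249 and 237 CPM at 30 kPa. The 4 libraries at 8 kPa spanned a narrow range above every library at 1 kPa and at 30 kPa, with a log2 fold change over 1 kPa of 0.20 with an SE of 0.0551 (adjusted p = 0.0296). CCT3, the gamma subunit (chr1:156308968-156367873, minus strand), had 258, 256, 279.9 and 287 CPM at 1 kPa, 311, 303, 319.8 and 333 CPM at 8 kPa and 290.4, 279, 325 and 319.8 CPM at 30 kPa. Its 8 kPa libraries cleared the 1 kPa libraries and overlapped those at 30 kPa, and the log2 fold change over 1 kPa was 0.23 with an SE of 0.0640 (adjusted p = 0.0322). TCP1, the alpha subunit (chr6:159778498-159789749, minus strand), had 216, 194, 206 and 229 CPM at 1 kPa, 244, 244, 249.8 and 239 CPM at 8 kPa and 217, 213, 239.96 and 233 CPM at 30 kPa. Its groups at 8 and 1 kPa did not overlap, and the log2 fold change was 0.21 with an SE of 0.0589 (adjusted p = 0.0324). Exons of TCP1 share 397 bases with ACAT2 on the opposite strand, whose counts came to 13.6% of those of TCP1, and the strand setting of the counting is not given in the sources used here, so reads from the shared bases cannot be assigned.

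The other 3 subunits did not pass the threshold. CCT8 averaged 226 ± 3.28 CPM at 8 kPa and 200.01 ± 12.6 CPM at 1 kPa, CCT4 averaged 223 ± 5.53 and 198 ± 12.2 CPM, and CCT6A, the most abundant subunit, averaged 391 ± 15.3 and 351 ± 17.6 CPM in the same groups (mean ± SD of 4 libraries each). Their adjusted p-values were 0.0541, 0.0931 and 0.0935. CCT8 and CCT6A passed in DESeq2, and CCT8 also in limma-voom, with a filter at a mean of 5 CPM and without 1 kPa replicate 4.

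**Figure D1:**
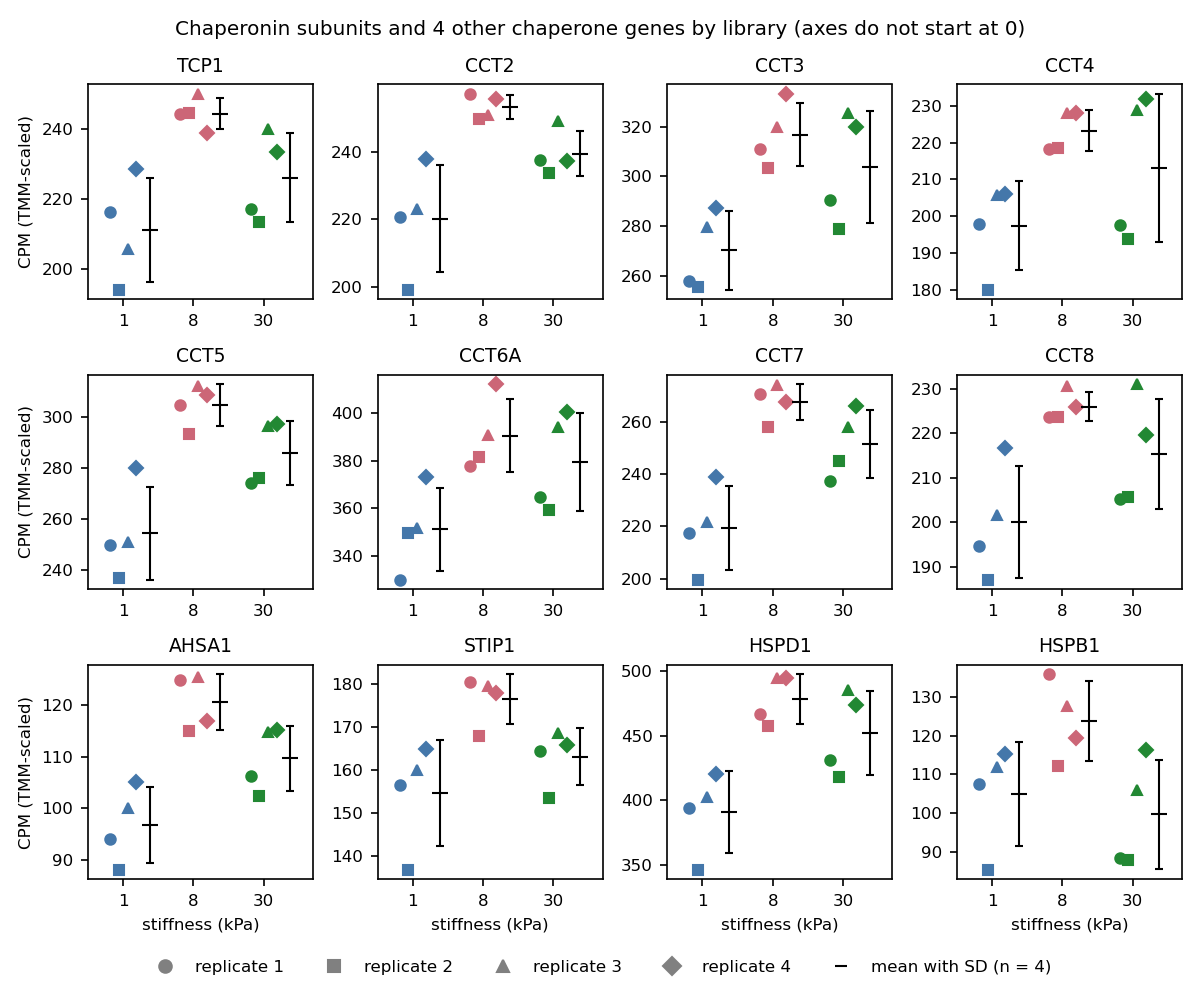
Level in CPM (vertical axes, which do not start at 0) of the 8 chaperonin subunits and of AHSA1, STIP1, HSPD1 and HSPB1 in each library at 1, 8 and 30 kPa; symbols mark the replicate number and bars the mean with SD (n = 4). In all 8 subunits the 4 libraries at 8 kPa lie above the 4 at 1 kPa, and the 30 kPa mean lies between the other means.

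Among the other 18 cytosolic genes, 2 passed, AHSA1 and STIP1, both higher at 8 kPa and both partners of HSP90. That share, 11.1%, was close to the 13.8% of all tested genes. AHSA1, which stimulates the ATPase of HSP90 (chr14:77457870-77469474, plus strand), had 94.0, 88.1, 99.9 and 105 CPM at 1 kPa, 125, 115, 125 and 117 CPM at 8 kPa and 106, 102, 115 and 115 CPM at 30 kPa. All 4 libraries at 8 kPa lay above all 4 at 1 kPa, and its log2 fold change of 0.32 with an SE of 0.0622 (adjusted p = 0.00979) was the highest of the 42 genes. Exons of AHSA1 share 83 bases with VIPAS39 on the opposite strand, whose counts came to 32.6% of those of AHSA1. STIP1, the adaptor that hands clients from HSP70 to HSP90 (chr11:64185272-64204543, plus strand), had 157, 137, 160.02 and 165 CPM at 1 kPa, 181, 168, 179.6 and 178 CPM at 8 kPa and 164, 154, 169 and 166 CPM at 30 kPa. Its groups at 8 and 1 kPa did not overlap either, with a log2 fold change of 0.19 with an SE of 0.0599 (adjusted p = 0.0477). STIP1 passed in only 1 of the 12 fits that leave out a library, and it did not pass by library size alone, with no filter, in the 8 libraries of the pair or with depth class as a term.

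The HSP90 genes themselves had positive log2 fold changes and did not pass. HSP90AA1, the stress-responsive form, had 1250.4, 1124, 1329.8 and 1386 CPM at 1 kPa, 1452, 1410.4, 1553 and 1474 CPM at 8 kPa and 1284, 1286, 1473 and 1409 CPM at 30 kPa. HSP90AB1, the constitutive form, had 1208, 1156, 1261 and 1314 CPM at 1 kPa, 1365, 1351, 1401 and 1467 CPM at 8 kPa and 1284, 1323, 1413 and 1395 CPM at 30 kPa. In both genes every 8 kPa library exceeded every 1 kPa library, and the log2 fold changes were 0.21 with an SE of 0.0775 (adjusted p = 0.0828) for HSP90AA1 and 0.18 with an SE of 0.0649 (adjusted p = 0.0822) for HSP90AB1. Both passed in DESeq2 (adjusted p = 0.022 for HSP90AA1 and 0.00825 for HSP90AB1) and without 1 kPa replicate 4 (adjusted p = 0.0397 and 0.0439 in the same order of genes).

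Of the cytosolic HSP70 group, the constitutive HSPA8 had 1269, 1258, 1334 and 1280.02 CPM at 1 kPa, 1313, 1299.5, 1379 and 1405 CPM at 8 kPa and 1330.4, 1186, 1435 and 1349 CPM at 30 kPa. Its groups overlapped, with a log2 fold change of 8 over 1 kPa of 0.07 with an SE of 0.0680 (adjusted p = 0.517). The inducible HSPA1A had 16.1, 12.8, 16.3 and 16.1 CPM at 1 kPa, 13.0, 15.7, 14.5 and 13.1 CPM at 8 kPa and 13.7, 12.2, 13.6 and 12.0 CPM at 30 kPa. HSPA1B had 7.27, 5.89, 8.39 and 6.96 CPM at 1 kPa, 4.79, 5.55, 6.84 and 6.30 CPM at 8 kPa and 6.43, 5.39, 5.88 and 5.60 CPM at 30 kPa. In both genes the groups overlapped, and the log2 fold changes of 8 over 1 kPa were -0.12 with an SE of 0.0940 (adjusted p = 0.410) for HSPA1A and -0.27 with an SE of 0.131 (adjusted p = 0.176) for HSPA1B. These neighbouring genes on chromosome 6 are near-identical, and HSPA1B was counted with as few as 73 reads in a library, so the split of reads between them is uncertain.

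HSF1, the transcription factor that switches on heat shock genes, had 23.5, 23.3, 24.0 and 28.99 CPM at 1 kPa, 31.8, 29.1, 27.1 and 25.8 CPM at 8 kPa and 27.7, 28.5, 28.9 and 29.2 CPM at 30 kPa. At 1 kPa replicate 4 stood within the range of the other stiffnesses while the other 3 libraries lay below it, and the log2 fold change of 8 over 1 kPa was 0.18 with an SE of 0.0802 (adjusted p = 0.135). Without that library the adjusted p was 0.026. HSPB1, the small heat shock protein HSP27 that binds unfolded proteins and actin filaments, had 108, 85.3, 112 and 115 CPM at 1 kPa, 136, 112, 128 and 119 CPM at 8 kPa and 88.3, 87.9, 106 and 116 CPM at 30 kPa. Its groups overlapped in all 3 comparisons, and the log2 fold change of 8 over 1 kPa was 0.24 with an SE of 0.105 (adjusted p = 0.143). DNAJA1, an HSP70 partner, had 258, 202, 252 and 282 CPM at 1 kPa, 302, 277, 297 and 256 CPM at 8 kPa and 246, 229.9, 259.8 and 242 CPM at 30 kPa, with a log2 fold change of 0.19 with an SE of 0.0878 (adjusted p = 0.164) and overlapping groups.

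The remaining 8 cytosolic genes did not pass. HSPA4, an exchange factor that recharges HSP70, averaged 263 ± 6.86 CPM at 8 kPa and 244 ± 6.00 CPM at 1 kPa (mean ± SD of 4 libraries each), without overlap between the groups (adjusted p = 0.144). Its relative HSPH1, the HSP70 partners DNAJB1, DNAJB6 and DNAJC7 and the ribosome-associated HSPA14 had log2 fold changes of 0.04 to 0.15. DNAJA2 at -0.05 and BAG3, which links HSP70 to autophagy, at -0.11 were negative. DNAJB6, which holds back protein aggregation, varied least of the 42 genes, with an SD over the 12 libraries of 1.54% of its mean. HSPA14 shares 460 exon bases with a second identifier of the same name, so its counts are uncertain.

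In mitochondria 1 of 4 genes passed. HSPD1, the HSP60 chaperonin (chr2:197486581-197516737, minus strand), had 394, 346, 403 and 421 CPM at 1 kPa, 467, 457, 495 and 494 CPM at 8 kPa and 432, 418, 485 and 474 CPM at 30 kPa. All 4 libraries at 8 kPa exceeded all 4 at 1 kPa, with a log2 fold change of 0.29 with an SE of 0.0707 (adjusted p = 0.0191). HSPE1, its HSP10 lid, is transcribed head to head with it and had 18.2, 14.6, 16.7 and 14.2 CPM at 1 kPa, 15.6, 16.2, 18.5 and 15.9 CPM at 8 kPa and 14.0, 14.3, 14.3 and 18.7 CPM at 30 kPa. Its groups overlapped (log2 fold change of 0.06 with an SE of 0.110 (adjusted p = 0.752)), and its fold change was not tested against that of HSPD1. HSPE1 was listed with 4004 counts in all and HSPD1 with 112462, and their exons share 281 bases on opposite strands. Named after HSPE1 are 26 pseudogenes, whose counts came to 3.0% of those of HSPE1. The overlap and the pseudogenes put the level of HSPE1 in doubt.

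HSPA9, the HSP70 that pulls proteins into the matrix, had 281, 277, 278 and 283 CPM at 1 kPa, 285, 301, 291 and 309.6 CPM at 8 kPa and 281, 294, 299.7 and 302 CPM at 30 kPa. The groups at 8 and 1 kPa did not overlap but differed by a log2 fold change of only 0.09 with an SE of 0.0482 (adjusted p = 0.237). TRAP1, the mitochondrial HSP90, had 70.2, 70.1, 64.6 and 67.0 CPM at 1 kPa, 69.2, 73.6, 66.8 and 77.7 CPM at 8 kPa and 75.0, 74.1, 73.9 and 75.3 CPM at 30 kPa. At 30 kPa its 4 libraries lay above the 4 at 1 kPa, the only such gene of the 42 in that comparison (5.33% of all tested genes), with a log2 fold change of 30 over 1 kPa of 0.13 with an SE of 0.0525 (adjusted p = 0.180). Exons of TRAP1 share 1531 bases with DNASE1 on the opposite strand.

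**Figure D2:**
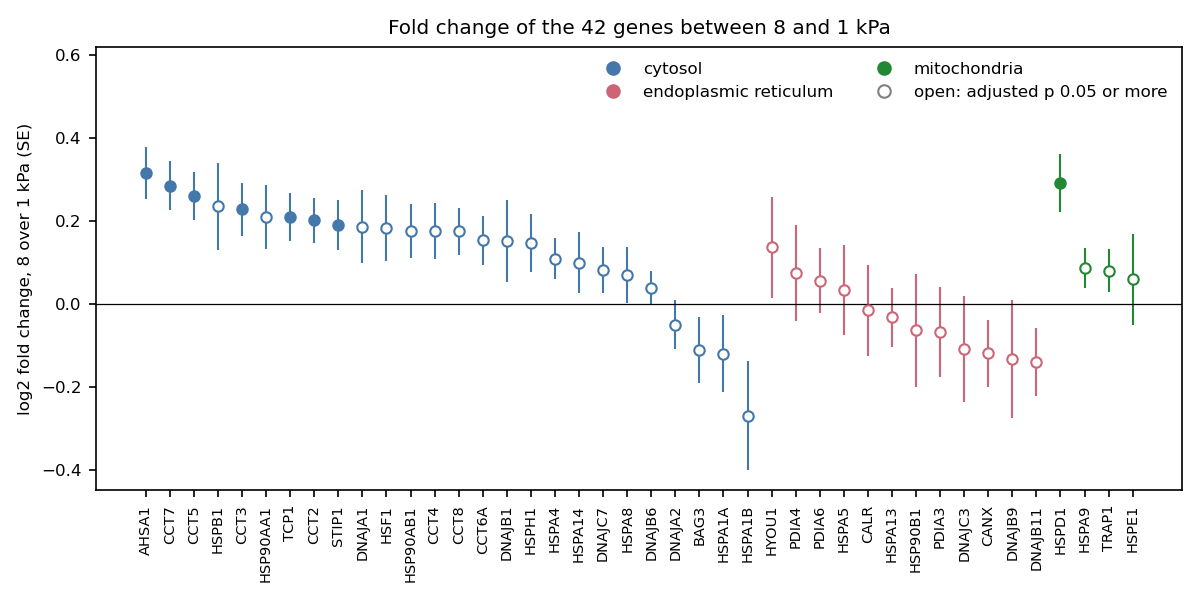
Log2 fold change of 8 over 1 kPa (vertical axis, bars SE) for each of the 42 genes (horizontal axis), coloured by compartment; filled points passed an adjusted p under 0.05. The 8 filled points are all positive, 7 of them cytosolic and 1 mitochondrial, and the 12 endoplasmic reticulum genes lie on both sides of 0.

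No gene of the endoplasmic reticulum passed in 8 against 1 kPa. Of the 12, 0 passed in edgeR and 0 of 12 reached an unadjusted p under 0.05, against 5609 of 17960 tested genes. Their log2 fold changes were positive in 4 and negative in 8, with a median of -0.05. None passed in any comparison in any of the 23 fits, those with DESeq2 and limma-voom included, and the smallest adjusted p among them was 0.0566. Over all 42 genes, 8 passed in this comparison, all higher at 8 kPa, or 19% against the 13.8% of all genes; 15 had all 4 libraries at 8 kPa above all 4 at 1 kPa and 0 had them below, against 9.41% and 7.36% of all genes. The cytosolic genes took 0.812, 0.793, 0.840 and 0.832% of the counts at 8 kPa, against 0.722, 0.678, 0.750 and 0.774% at 1 kPa, with no overlap. The endoplasmic reticulum genes took 0.583, 0.765, 0.641 and 0.586% at 8 kPa, against 0.643, 0.770, 0.650 and 0.569% at 1 kPa, and the groups overlapped.

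HSPA5 (BiP), the HSP70 of the endoplasmic reticulum and the usual readout of the unfolded protein response (chr9:125234853-125241330, minus strand), had 631, 733, 598 and 551 CPM at 1 kPa, 566, 769, 647 and 588 CPM at 8 kPa and 527, 665, 600.4 and 572 CPM at 30 kPa. Replicate 2 was the highest library at every stiffness, and the groups overlapped, with a log2 fold change of 8 over 1 kPa of 0.03 with an SE of 0.108 (adjusted p = 0.866). HYOU1, the exchange factor of HSPA5, had 225, 232, 204 and 184 CPM at 1 kPa, 214, 289.8, 225 and 201 CPM at 8 kPa and 194, 272, 209 and 208 CPM at 30 kPa. Replicate 2 was again the highest at every stiffness, with a log2 fold change of 8 over 1 kPa of 0.14 with an SE of 0.122 (adjusted p = 0.473). The calcium-binding lectin CALR had 959.8, 1124, 1019 and 853 CPM at 1 kPa, 862, 1166, 981 and 905 CPM at 8 kPa and 757, 973, 914 and 938 CPM at 30 kPa. Its membrane-bound relative CANX had 1146, 1262, 1148 and 1082 CPM at 1 kPa, 1002, 1239, 1047 and 982 CPM at 8 kPa and 972, 1095, 997 and 996 CPM at 30 kPa. Both had their highest library in replicate 2 at every stiffness, and their log2 fold changes of 8 over 1 kPa were -0.02 with an SE of 0.110 (adjusted p = 0.943) for CALR and -0.12 with an SE of 0.0815 (adjusted p = 0.338) for CANX.

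DNAJB9, a partner of HSPA5, had 56.4, 52.0, 51.0 and 39.9 CPM at 1 kPa, 44.2, 59.1, 44.9 and 33.4 CPM at 8 kPa and 43.2, 42.4, 41.1 and 35.4 CPM at 30 kPa. DNAJB11, another partner of HSPA5, had 59.3, 58.4, 51.0 and 50.9 CPM at 1 kPa, 45.8, 58.2, 49.6 and 45.3 CPM at 8 kPa and 47.7, 52.4, 46.5 and 47.7 CPM at 30 kPa. These were the 2 genes of the 12 that did not peak in replicate 2 at every stiffness, and for each of them the groups overlapped, with log2 fold changes of 8 over 1 kPa of -0.13 with an SE of 0.142 (adjusted p = 0.560) for DNAJB9 and -0.14 with an SE of 0.0820 (adjusted p = 0.261) for DNAJB11. Both overlap genes on the opposite strand, and in DNAJB9 those partners have more counts than DNAJB9 itself. The remaining 6 genes, namely HSP90B1 (the HSP90 of this compartment), HSPA13, DNAJC3 and the disulfide isomerases PDIA3, PDIA4 and PDIA6, had log2 fold changes of -0.11 to 0.07.

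The shared height of replicate 2 was noticed in the values and is given as a description, with no test. Replicate 2 was the highest library at 1, 8 and 30 kPa in 10 of 12 endoplasmic reticulum genes, 0 of 26 cytosolic genes and 0 of 4 mitochondrial genes, against 6.7% of all tested genes. For HSP90B1 the level in replicate 2 was 1.39 times the mean of the other 3 libraries at 1 kPa, 1.32 times at 8 kPa and 1.20 times at 30 kPa. For HSPA5 these ratios were 1.24, 1.28 and 1.17. Replicate 2 was the lowest library at every stiffness in 9 of 26 cytosolic genes (CCT2, CCT3, HSPA8, HSPB1, HSPH1, DNAJB1, DNAJC7, STIP1 and AHSA1) and in HSPD1, against 6.74% of all tested genes. The ratio for DNAJB1, a stress-induced HSP70 partner, was 0.788, 0.874 and 0.772 at 1, 8 and 30 kPa.

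Genes of this compartment outside the 42 were counted in the same way. Replicate 2 was highest at every stiffness in 10 of 16 other folding and redox genes, among them P4HB, a disulfide isomerase, and the oxidases ERO1A and ERO1B. It was highest in 8 of 14 genes of stress signalling and degradation, among them the response's own factors ATF6, XBP1, ERN1 and EIF2AK3. It was not in ATF4, DDIT3, HERPUD1, PPP1R15A, DERL2 and CREB3L2 of that list. Nor was it in MANF, SDF2L1, SERP1, ERP29, TXNDC5 and DNAJC1 of the folding and redox list. Replicate 2 was highest at every stiffness in 1 of the 62 tested genes in the other 5 lists, the DNAJ gene DNAJB14. The ER stress element was in the windows of 5 genes named above, all of which peaked in replicate 2 at every stiffness. So did HSPA13, DNAJC3, PDIA4 and HYOU1, whose windows lacked it, and in all 10 of the 12 genes did. A link between the element and replicate 2 was not tested. The labels do not say what the replicate number stands for.

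**Figure D3:**
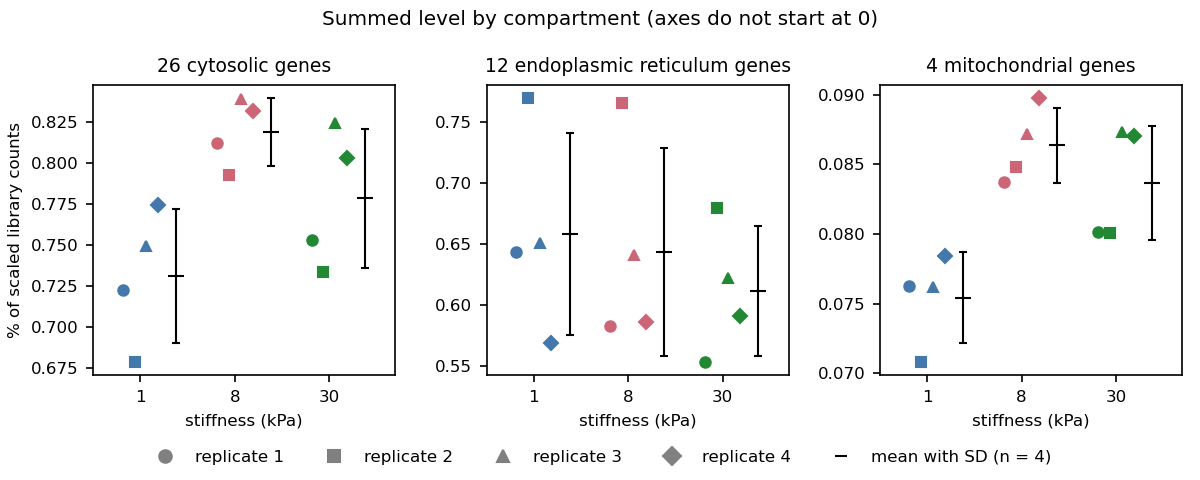
Summed level of the cytosolic, endoplasmic reticulum and mitochondrial genes as a percent of scaled library counts (vertical axes, which do not start at 0) in each library by stiffness; symbols mark the replicate number and bars the mean with SD (n = 4). Replicate 2 (squares) is the highest library for the endoplasmic reticulum genes and the lowest for the cytosolic genes at each stiffness.

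**Figure D4:**
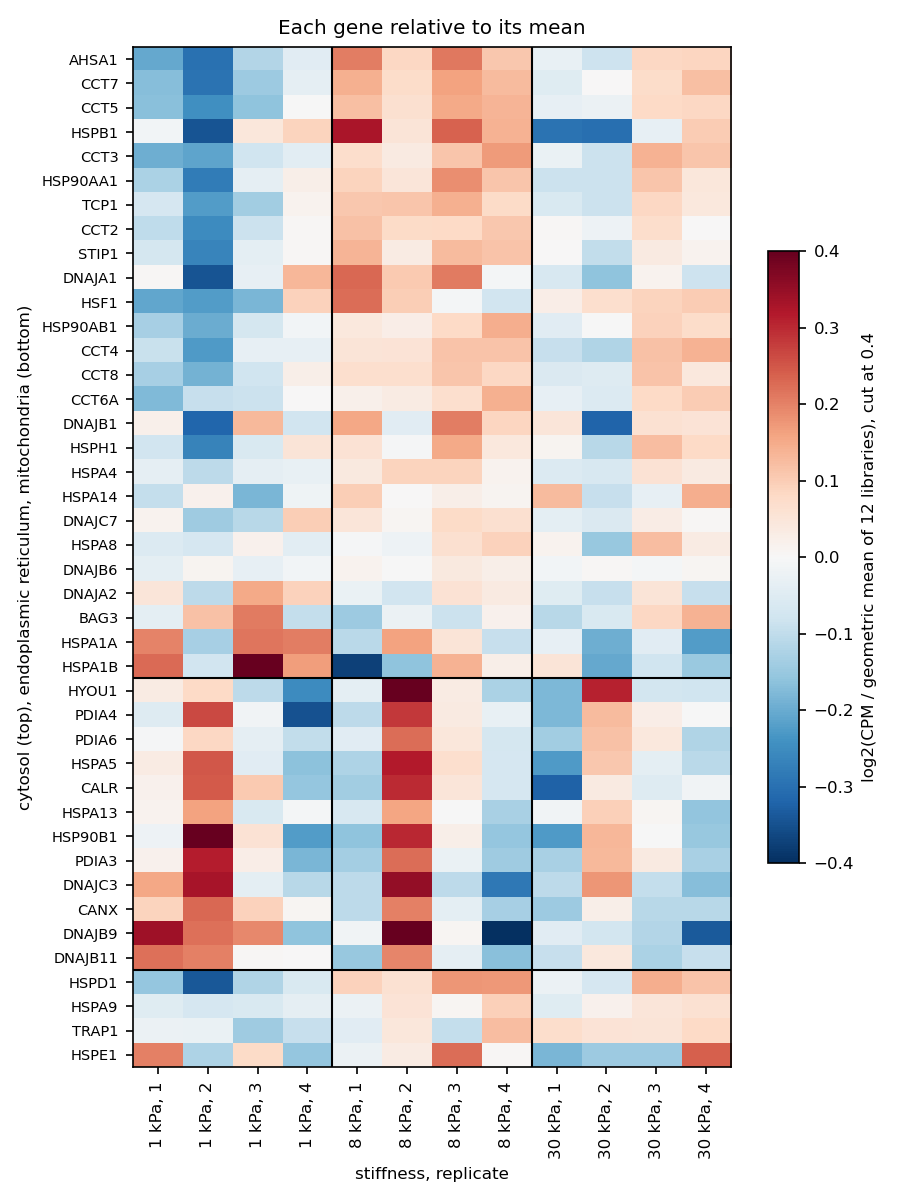
Each of the 42 genes (down) in each of the 12 libraries (across), as the log2 ratio of its CPM to its geometric mean over the 12 libraries, with colours cut at 0.4. The 8 kPa columns are raised in the cytosolic block, and the replicate 2 columns are raised in the endoplasmic reticulum block at all 3 stiffnesses.

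How far the difference between 8 and 1 kPa holds was read from fits without each library in turn. AHSA1 and CCT7 passed in all 12 of these fits, with a highest adjusted p of 0.0452 for AHSA1 and 0.0497 for CCT7. CCT5 passed in 11 and was lost without 8 kPa replicate 3 (adjusted p = 0.0569). HSPD1 passed in 10 and failed without 8 kPa replicate 1 (adjusted p = 0.0503) or 8 kPa replicate 3 (adjusted p = 0.0696). CCT2 passed in 7, and CCT3 and TCP1 in 6 each of the 12. The count of genes called fell to 4 without 1 kPa replicate 1, 2 or 3, where the 2472 calls over all tested genes became 1096 to 1575. It fell to 3 without 8 kPa replicate 1, with 771 calls over all genes. Without 8 kPa replicate 3 it fell to 2, with 534 calls over all genes.

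With the depth class of the library added as a term, 0 of the 42 genes and 0 of all genes passed. Only the 8 kPa group held both depth classes, so this fit sets 8 kPa replicate 1 alone against the 4 libraries at 1 kPa. The log2 fold changes of the 8 genes were 0.20 to 0.37 in it, with adjusted p-values of 0.0746 (AHSA1) to 0.256 (CCT3). The fit within the shallow class makes the same comparison and is no separate check. Its log2 fold changes of the same 8 genes were 0.21 to 0.38. 8 kPa replicate 1 lay above all 4 libraries at 1 kPa in 8 of 8 chaperonin genes, 20 of 26 cytosolic genes, 2 of 4 mitochondrial genes and 0 of 12 endoplasmic reticulum genes, against 29.9% of all tested genes. It lay below all 4 in 3 of 12 endoplasmic reticulum genes and 2 of 26 cytosolic genes, against 30.6%. Of those above, all 8 chaperonin, 13 cytosolic and 2 mitochondrial genes follow from the lack of overlap between the 2 groups. They are therefore no separate check. Stiffness and depth cannot be fully told apart here, since no library at 1 kPa was deep.

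Cells at 30 kPa were compared with those at 8 kPa to see whether the stiffest surface adds to the change. No gene of the 42 passed in edgeR's quasi-likelihood test, nor did any of the 17960 genes (0%). An unadjusted p under 0.05 was reached by 3 of 42 and 3218 of all genes. In DESeq2 0 of the 42 passed, against 430 of 17960 genes, and in limma-voom 0 of the 42 and 0 of all genes. Of the 42 log2 fold changes 38 were negative, with a median of -0.07 against 0.00 for all genes. The 3 genes under an unadjusted p of 0.05 were HSPB1 at -0.31 with an SE of 0.104 (adjusted p = 0.174), DNAJA1 at -0.21 with an SE of 0.0875 (adjusted p = 0.240) and AHSA1 at -0.14 with an SE of 0.0615 (adjusted p = 0.265), all cytosolic. CCT2 was the only gene of the 42 whose 4 libraries at 30 kPa lay below the 4 at 8 kPa (6.5% of all tested genes), with a log2 fold change of -0.08 with an SE of 0.0549 (adjusted p = 0.453). This comparison shares its 8 kPa libraries with the one above, so the signs in the 2 comparisons are not independent of each other, and the same goes for 30 against 1 kPa.

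At 30 against 1 kPa, 0 of 42 genes passed in edgeR, limma-voom or the 8 libraries fitted alone, while 2.43% of all tested genes passed in edgeR. In DESeq2 3 of the 42 passed, against 1068 of 17960 genes. An unadjusted p under 0.05 in edgeR was reached by 12 of the 42, against 3393 of 17960 genes. CCT7 came nearest, with a log2 fold change of 0.20 with an SE of 0.0599 (adjusted p = 0.0946), followed by HSPD1 at 0.21 with an SE of 0.0706 (adjusted p = 0.125). Those 2 genes and CCT5 (adjusted p = 0.0482) were the 3 that passed in DESeq2. All 8 chaperonin subunits were positive, with a median of 0.12. Of the 12 endoplasmic reticulum genes 10 were negative, with a median of -0.11, and DNAJB9 was the lowest at -0.30 with an SE of 0.142 (adjusted p = 0.278). HSPA1A at -0.25 with an SE of 0.0938 (adjusted p = 0.164) and HSPA1B at -0.29 with an SE of 0.130 (adjusted p = 0.235) were the lowest cytosolic genes.

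Set against the mean of both other stiffnesses, 8 kPa was higher for 3 of the 42 genes, AHSA1 at 0.23 with an SE of 0.0530 (adjusted p = 0.0309), CCT7 at 0.19 with an SE of 0.0514 (adjusted p = 0.0443) and CCT5 at 0.18 with an SE of 0.0503 (adjusted p = 0.0498), or 7.14% against 7.08% of all tested genes, of which 4.42% were higher. A test for any difference among the 3 stiffnesses passed for 4 of 42 (AHSA1, CCT7, CCT5 and HSPD1), or 9.52% against 9.16% of all genes. Both shares were close to those of all genes. The count against the mean was 0 without 1 kPa replicate 1, where 543 of all genes passed. It was also 0 without 8 kPa replicate 1, 2 or 3, where 0, 176 and 0 of all genes passed. Without 30 kPa replicate 1, 2 or 3 it was 0 too, with 0, 1 and 262 of all genes. The count for any difference was 0 without 1 kPa replicate 1 or 3, where 390 and 437 of all genes passed. Without 8 kPa replicate 1 or 3 it was 0 as well, with 380 and 230 of all genes. In the main fits 1272 and 1646 of all genes passed. The means lay in the order 1, 30, 8 kPa from low to high in 8 of 8 chaperonin genes, 18 of 26 cytosolic genes, 2 of 12 endoplasmic reticulum genes and 2 of 4 mitochondrial genes, against 24.1% of all tested genes. At 30 kPa the libraries themselves were split, as noticed in the values. Replicates 3 and 4 both lay above replicates 1 and 2 in 19 of 26 cytosolic genes, 7 of 8 chaperonin genes among them. The same held for 0 of 12 endoplasmic reticulum genes and 2 of 4 mitochondrial genes, against 21.3% of all tested genes.

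**Figure D5:**
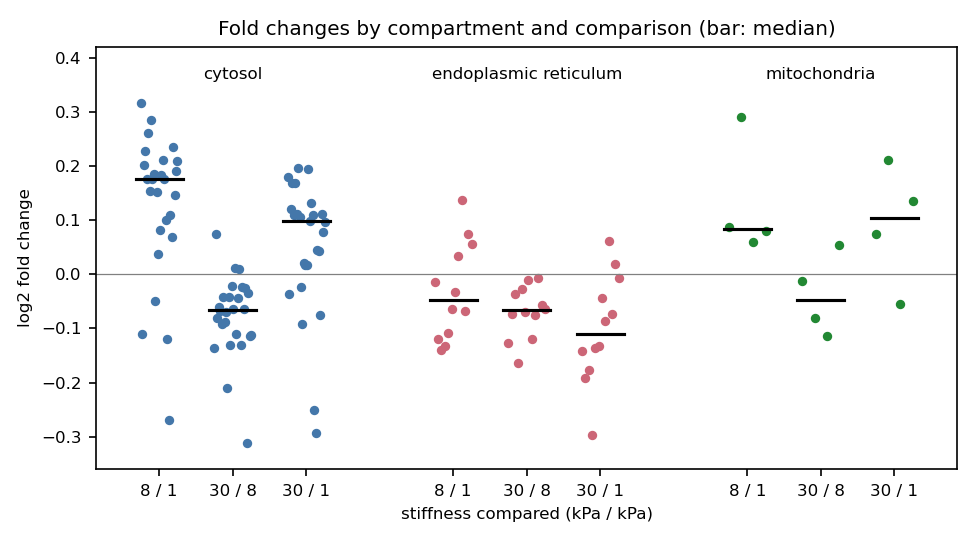
Log2 fold changes (vertical axis) of the 42 genes by compartment for 8 over 1, 30 over 8 and 30 over 1 kPa; each point is a gene and each bar the median of its compartment. The cytosolic medians are 0.18, -0.07 and 0.10, and those of the endoplasmic reticulum are -0.05, -0.07 and -0.11.

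Other genes of protein folding, from 7 lists of 92 tested genes, gave 24 calls in 8 against 1 kPa, where 13.8% of all tested genes passed. The 24 became 7 without 8 kPa replicate 1, 4 without 8 kPa replicate 3, 10 to 14 without 1 kPa replicate 1, 2 or 3, and 0 with depth class as a term. Over all tested genes the 2472 calls became 771 without 8 kPa replicate 1 and 534 without 8 kPa replicate 3. They became 1096 to 1575 without 1 kPa replicate 1, 2 or 3. Of 10 partners of the chaperonin, chiefly prefoldin, which delivers unfolded actin and tubulin to it, 7 were higher and 1 lower at 8 kPa. VBP1, a prefoldin subunit, averaged 59.9 ± 2.92 CPM at 8 kPa and 46.5 ± 5.47 CPM at 1 kPa (mean ± SD of 4 libraries each), a log2 fold change of 0.36 (adjusted p = 0.0117). The prefoldin subunits PFDN4 and PFDN1 were higher by 0.34 (adjusted p = 0.014) and 0.31 (adjusted p = 0.0175), and PFDN5, another subunit, was lower at -0.42 (adjusted p = 0.0216).

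Of 20 partners of cytosolic HSP90 and HSP70, 6 were higher and 0 lower. HSPBP1, which strips nucleotide from HSP70, averaged 24.9 ± 1.55 CPM at 8 kPa and 18.2 ± 1.71 CPM at 1 kPa (mean ± SD of 4 libraries each), a log2 fold change of 0.45 (adjusted p = 0.0072). STUB1, the ligase that marks chaperone clients for degradation, was higher by 0.22 (adjusted p = 0.0161), and the HSP90-bound phosphatase PPP5C by 0.20 (adjusted p = 0.0265). Of 10 other DNAJ genes 3 were higher (DNAJC5, DNAJC8 and DNAJC9, at 0.23, 0.26 and 0.24) and 0 lower. Among 7 small heat shock and stress factor genes, HSBP1, a binding partner of HSF1, was higher by 0.32 (adjusted p = 0.00969), and the factor HSF4 was lower at -0.52 (adjusted p = 0.0133).

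Of 15 mitochondrial folding and protease genes 3 were higher and 2 lower. CLPP, a matrix protease, was at 0.47 (adjusted p = 0.0159), LONP1, another, at 0.14 (adjusted p = 0.0313), and PAM16, of the import motor, at -0.55 (adjusted p = 0.0227). In the endoplasmic reticulum 0 of 16 folding and redox genes and 0 of 14 stress and degradation genes passed, with medians of -0.12 and -0.13. At 30 against 8 kPa 0 of the 92 passed, and at 30 against 1 kPa 4 did, where 2.43% of all tested genes passed. With depth class as a term the 4 became 0, and they became 1 without 1 kPa replicate 3, without 8 kPa replicate 3 or without any 1 of the 4 libraries at 30 kPa, and 2 without 1 kPa replicate 1 or 8 kPa replicate 2. The 4 were HSPA2, a testis-enriched HSP70, at -0.53 (adjusted p = 0.00651), DDIT3, the stress factor CHOP, at -0.38 (adjusted p = 0.0443), HSPBP1 at 0.33 (adjusted p = 0.0427) and LONP1 at 0.19 (adjusted p = 0.0281).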

How the data were processed

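Total RNA of SK-N-SH cells in 12 libraries (4 each at 1, 8 and 30 kPa) was sequenced. The authors deposited whole-number raw counts for each gene, named by Ensembl identifier. Per the submitters' processing notes, HISAT2 and the build GRCh38 were used, and the counting tool, annotation release and strand setting are not given in the sources used here. Of 60664 identifiers 60463 were found in the gene table and 42028 had a symbol, and positions and exon lengths come from GENCODE v29 on GRCh38.

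Counts were fitted in R 4.3.3 with edgeR 4.0.16 (filterByExpr, TMM, quasi-likelihood F-test, all 12 libraries, stiffness as the only term). The filter left 17960 genes, with 99.87% or more of each library's counts. Benjamini-Hochberg adjustment ran over all of them, 0.05 was the threshold, and the biological coefficient of variation was 0.0966. Each SE is the log2 fold change divided by the root of F. Nothing says that the libraries come from separate cultures, so p-values measure only their spread, in part perhaps technical. The fitting steps were tested on simulated counts.

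The members and lists were chosen with earlier results of these data known. Members given with all 12 values were those that passed without overlap between groups, the 3 of each compartment with the smallest adjusted p in each pair of stiffnesses, and HSF1, HSPA1A, HSPA1B, HSPB1, HSP90AA1, HSP90AB1, HSPA8, HSPA5, HSPD1 and TCP1. Of each other list, up to 3 passing genes with the smallest adjusted p were named, and PFDN5 was added after its value was seen. The alternatives tried were library size alone, median-ratio scaling, a table with no filter, a mean of at least 5 CPM, DESeq2 1.42.0, limma-voom (limma 3.58.1), the replicate number as a block, only the 8 libraries of a pair, depth class as a term and leaving out each library. A fit within depth class was chosen after seeing the data. Promoter windows are from RefSeq (GRCh38.p14). No protein sequences were used. The result of one lineage marker is not reported here.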

Additional observations from a re-analysis of the deposited data

Results flagged for a closer look

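In 141 checks of single genes or sums within a group of 4 libraries, 5 libraries stood far from the other 3, and chance alone gives about 1 in 20. HSPA1A had 12.8 CPM in 1 kPa replicate 2 and 16.1 to 16.3 CPM in the other 3 libraries at 1 kPa. HSPA4 had 235 CPM in the same library and 247 to 248 CPM in the others. HSF1 had 28.99 CPM in 1 kPa replicate 4 and 23.3 to 24.0 CPM in the others. DNAJB1 had 54.0 CPM in 30 kPa replicate 2 and 69.6 to 70.4 CPM in the others. HSPE1 had 18.7 CPM in 30 kPa replicate 4 and 14.0 to 14.3 CPM in the others.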

How the results depend on the processing

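For 8 against 1 kPa, the 8 genes called became 13 with DESeq2, 15 with the replicate block, 4 in the 8 libraries of the pair, 0 with depth class as a term, 0 within depth class (chosen after seeing the data) and 2 to 12 without 1 library. It was 7 to 9 with the other normalizations, the other filters and limma-voom. Over all 17960 tested genes the 2472 called became 3153 with DESeq2 and 3273 with the replicate block. In the 8 libraries of the pair 1068 of 16344 genes passed, and without 1 library 534 to 3563 did. For 30 against 8 kPa it was 0 in every alternative. For 30 against 1 kPa the 0 became 3 with DESeq2, 3 with the replicate block and 0 to 2 without 1 library. Of all 17960 genes, the 437 called became 1068 with DESeq2 and 974 with the replicate block. Without 1 library 50 to 676 of all genes passed. For 8 kPa against the mean of the others, the 3 became 1 by library size alone, 8 with DESeq2, 11 with the replicate block, 1 with depth class as a term and 0 to 9 without 1 library. Of all genes, the 1272 called became 1010 by library size alone, 2296 with DESeq2, 2096 with the block and 1268 with depth class. For any difference, the 4 became 10 with DESeq2, 9 with the replicate block, 0 with depth class as a term and 0 to 8 without 1 library. Of all genes, the 1646 called became 3117 with DESeq2, 2626 with the block and 0 with depth class.

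Of the other folding genes, the 24 called in 8 against 1 kPa became 9 in the 8 libraries, 0 with depth class as a term, 0 within depth class and 4 to 32 without 1 library. In 30 against 8 kPa the 0 became 2 with no filter, 3 with DESeq2, 1 in the 8 libraries and 0 to 8 without 1 library. All genes gave 330 of 35940 with no filter, 430 of 17960 with DESeq2 and 61 of 17561 in the 8 libraries. In 30 against 1 kPa the 4 became 2 by library size alone, 7 with DESeq2, 1 in the 8 libraries, 0 with depth class as a term and 1 to 5 without 1 library. All genes gave 263 of 17960 by library size alone, 1068 of 17960 with DESeq2 and 351 of 17085 in the 8 libraries. The cause of these shifts was not tested, beyond the fewer libraries in some fits.

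Single genes were refitted for the 25 given with all 12 values. Among these 25, only log2 fold changes that had not passed changed sign. For 8 against 1 kPa these were CALR (0.013 by library size alone, 0.003 with no filter), HSPA5 (-0.149 with depth class as a term, -0.139 within depth class) and HSPE1 (-0.029 and -0.018 in the same fits). For 30 against 8 kPa it was HSPA9 (0.002 with the stricter filter). For 30 against 1 kPa with depth class as a term they were DNAJA1 (0.104), HSPA8 (-0.008), HSPA9 (-0.001), HSPB1 (0.106) and HYOU1 (-0.098). Without 1 library the ranges of those that crossed 0 were, in 8 against 1 kPa -0.110 to 0.052 for CALR, -0.064 to 0.116 for HSPA5 and -0.004 to 0.130 for HSPE1. In 30 against 8 kPa they were -0.108 to 0.006 for CANX, -0.077 to 0.049 for DNAJB11, -0.029 to 0.068 for HSF1, -0.095 to 0.060 for HSPA1B, -0.066 to 0.027 for HSPA8, -0.028 to 0.012 for HSPA9 and -0.188 to 0.049 for HYOU1. In 30 against 1 kPa they were -0.109 to 0.041 for DNAJA1, -0.166 to 0.016 for HSPE1 and -0.056 to 0.117 for HYOU1.

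The replicate numbers were not taken to pair the libraries, because 7 of 12 same-number pairs, not every one, correlated above 0.1 in their deviations (-0.177 to 0.467, against -0.399 to 0.324 in 36 other pairs). The 3 pairs of replicate 2 did, at 0.213 to 0.467, and a library correlated best with its own number in 15 of 24 cases, a hint of pairing from the data that the labels do not state. The 15 genes called with the block in 8 against 1 kPa included all 8 chaperonin subunits, HSP90AA1, HSP90AB1, HSPB1 and DNAJB1. Depth limited HSPA1B most, at 73 counts in its lowest library. Intervals and spreads rest on 4 libraries a group.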
